A study of Mus musculus with 2 samples.

Results

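The interferon response genes examined here are 43 transcripts of RNA sensors, interferon signalling factors, antiviral effectors and interferon-induced GTPases, measured by RNA-seq in primary hepatocytes of the mouse kept in culture. They were chosen by gene symbol, and all 43 were found among the 20505 genes of the deposited tables. The cells came from C57BL/6 mice by collagenase perfusion of the liver and were infected overnight with an adenovirus. The control virus carried β-Gal, an enzyme of bacteria, and the other carried HuR, the product of Elavl1 and a protein that binds RNA. Each group was 1 library, so 2 libraries in all, and both came from infected cells. Sources used here do not give the age and number of the mice, the virus dose or the promoter of the viral inserts. No value below has a replicate, and no test between conditions was possible. Elavl1 stood at 9.67 FPKM in β-Gal cells and at 4480 FPKM in HuR cells. These values do not separate reads of the viral insert from reads of the cells' own gene.

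Cells sense foreign RNA through RIG-I-like helicases and the adaptor MAVS, which lead to IRF3 and IRF7 and so to the release of interferon. Interferon then acts on its receptors, and a complex that holds STAT2 and IRF9, called ISGF3, binds interferon-stimulated response elements (ISRE) in the promoters of antiviral genes. Interferon gamma acts through gamma-activated sites (GAS) and induces IRF1 and several GTPases that attack the compartments of intracellular pathogens. Hepatocytes have receptors for both kinds of interferon, and adenovirus vectors can themselves be sensed by innate receptors.

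The promoters of 6 members are shown first because they hold matches to the pattern of a response element bound by ISGF3, in members that were at least 2-fold lower (Ddx58, Stat2 and Gbp7), lower by under 2-fold (Isg15 and Ifit1) and higher (Igtp) in the HuR library. Each runs 5′ to 3′ on the strand of the gene, from 250 bases before the annotated start to 50 bases from it, after RefSeq on GRCm38.p6, and capitals mark matches to the ISRE pattern, which is GAAA, 2 bases of any kind and GAAA again, on either strand (TTTC, 2 bases and TTTC when read from the other strand). The regions are chr4:156200769-156201068 (minus strand) for Isg15, chr19:34640639-34640938 (plus) for Ifit1, chr4:40239776-40240075 (minus) for Ddx58, chr10:128270248-128270547 (plus) for Stat2, chr3:142530086-142530385 (plus) for Gbp7 and chr11:58199306-58199605 (plus) for Igtp.
Isg15: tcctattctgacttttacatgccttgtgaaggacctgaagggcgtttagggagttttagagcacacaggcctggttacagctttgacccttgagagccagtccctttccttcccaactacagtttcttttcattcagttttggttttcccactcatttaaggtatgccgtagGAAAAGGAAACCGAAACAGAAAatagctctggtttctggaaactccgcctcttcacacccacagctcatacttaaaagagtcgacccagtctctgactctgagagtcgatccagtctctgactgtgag
Ifit1: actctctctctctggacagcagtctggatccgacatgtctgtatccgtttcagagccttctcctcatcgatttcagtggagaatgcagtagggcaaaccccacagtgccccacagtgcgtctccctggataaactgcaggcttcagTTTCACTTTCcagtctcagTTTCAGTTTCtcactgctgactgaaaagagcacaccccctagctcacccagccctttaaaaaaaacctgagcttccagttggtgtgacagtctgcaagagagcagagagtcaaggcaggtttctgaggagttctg
Ddx58: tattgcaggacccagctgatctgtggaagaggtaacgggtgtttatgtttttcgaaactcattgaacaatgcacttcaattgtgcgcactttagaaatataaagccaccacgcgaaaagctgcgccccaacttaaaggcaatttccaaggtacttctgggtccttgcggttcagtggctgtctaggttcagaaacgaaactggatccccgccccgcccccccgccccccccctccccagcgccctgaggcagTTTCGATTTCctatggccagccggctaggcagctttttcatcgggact
Stat2: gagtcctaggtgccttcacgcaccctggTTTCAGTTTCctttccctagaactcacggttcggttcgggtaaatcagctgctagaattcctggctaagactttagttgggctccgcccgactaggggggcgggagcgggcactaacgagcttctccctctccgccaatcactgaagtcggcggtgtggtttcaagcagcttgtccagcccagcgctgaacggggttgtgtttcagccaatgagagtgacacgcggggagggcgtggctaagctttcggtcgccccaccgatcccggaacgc
Gbp7: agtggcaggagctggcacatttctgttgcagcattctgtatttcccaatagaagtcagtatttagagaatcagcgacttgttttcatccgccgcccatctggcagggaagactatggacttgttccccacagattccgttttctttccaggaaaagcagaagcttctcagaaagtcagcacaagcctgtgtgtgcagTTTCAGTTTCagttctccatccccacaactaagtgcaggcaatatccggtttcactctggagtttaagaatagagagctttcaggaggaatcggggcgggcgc
Igtp: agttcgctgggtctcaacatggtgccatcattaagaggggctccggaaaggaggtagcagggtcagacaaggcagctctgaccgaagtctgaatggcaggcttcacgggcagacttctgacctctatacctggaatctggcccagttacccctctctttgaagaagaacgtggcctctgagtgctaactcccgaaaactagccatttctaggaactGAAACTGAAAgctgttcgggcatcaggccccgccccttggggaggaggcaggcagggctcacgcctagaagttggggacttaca

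In Isg15, 3 overlapping matches began 78, 72 and 66 bases before the start. Ifit1 held 2 separate matches, at 104 and 85 bases before it. The match of Ddx58 lay just after the start, and that of Stat2 lay 222 bases before it. Gbp7 and Igtp also held the GAS pattern TTCNNNGAA, which is the same on both strands, at 106 and 87 bases before the start in Gbp7 and at 45 bases in Igtp.

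Promoters were available for 32 members, in 38 windows, since 5 members had more than 1 annotated start. An ISRE match was present in 18 of the 38 windows (47.4%), compared with 3.44% of all 32851 promoters of the same length. A GAS match was present in 8 of the 38 windows (21.1%), compared with 8.30% of all promoters. These shares describe the letters of the windows, and a match is not a measured binding site. The compared members with an ISRE match had a median log2 fold change of -0.49 (18 genes, -1.57 to 0.65), and those without one had a median of -0.27 (14 genes, -1.46 to 0.86). The ranges overlapped almost wholly. Of the members at least 2-fold lower, 3 had a match (Ddx58, Stat2 and Gbp7) and 2 had none in the window (Ifi44 and Ifi47), while Parp14 was not in the promoter table.

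**Figure D1:**
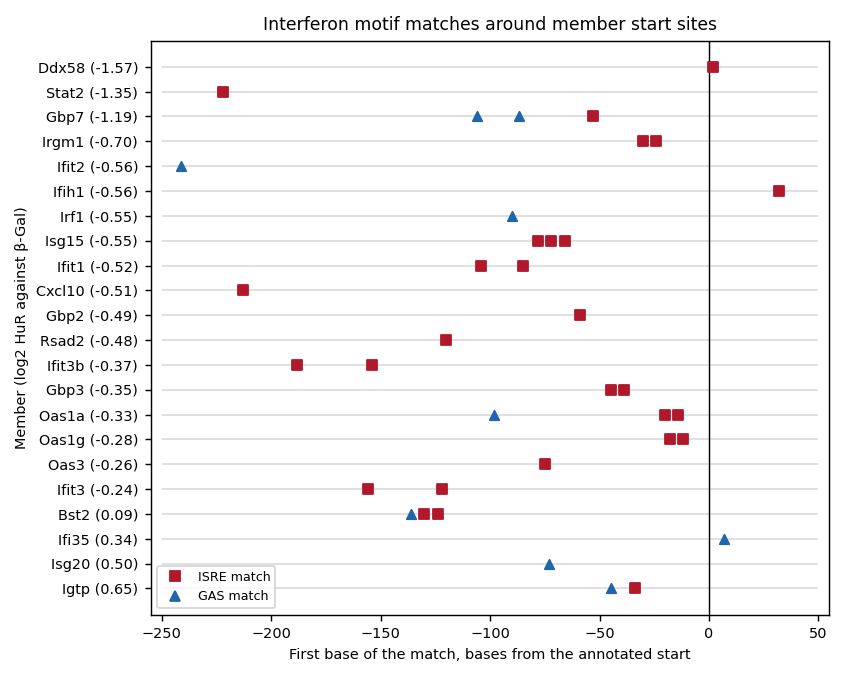
First base of each ISRE (squares) and GAS (triangles) match relative to the annotated start (0), for the 22 members with a match, ordered by log2 HuR against β-Gal, which is given in parentheses. Within this order, ISRE matches occur from Ddx58 (-1.57) to Igtp (0.65). Members without a match, such as Ifi44 (-1.46) and Tap1 (0.86), are not in it.

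Most interferon response genes were somewhat lower in the HuR library, and a few were clearly lower. FPKM, the unit of the tables, is the read number of a gene relative to its transcript length and to all reads of the library, and the log2 fold change is log2((HuR + 1)/(β-Gal + 1)), which understates differences of low genes. A minimum of 1 FPKM in either library was set for comparison, which 41 of the 43 members met. Of these, 6 were at least 2-fold lower (14.6%) against 8.31% of all 12905 compared genes, and 0 exceeded 2-fold upward against 5.35% of all compared genes. The 6 were Ddx58, Stat2, Parp14, Ifi44, Gbp7 and Ifi47. At 1.5-fold, 12 members were lower (the 6 with Dhx58, Mavs, Zbp1, Oasl2, Irgm1 and Iigp1) against 23.4% of all genes, and 2 (Tap1 and Igtp) were higher against 12.0%.

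Values below 0 were seen for 35 of the 41 members (85.4%) and for 60.7% of all compared genes. The share of 60.7% is also the reference for the counts of lower and higher genes in each role and list below. The members' median was -0.48, and the median of all compared genes was -0.17. Counting intervals of the ratio lay wholly below 1 for 33 members, against 46.3% of all genes, and wholly above 1 for 6, against 26.5%. They lay wholly beyond 2-fold lower for 5 of the 41 members, against 6.60% of all genes with such an interval. The sixth member called lower, Ifi47, had an interval that reached just inside 2-fold. These are exact 95% Clopper-Pearson intervals on reads recovered from the FPKM values, given in parentheses after each fold below. Such intervals hold no error from culture, infection or library preparation. The members' reads ranged from 40 to 7328 per library among compared members.

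**Figure D2:**
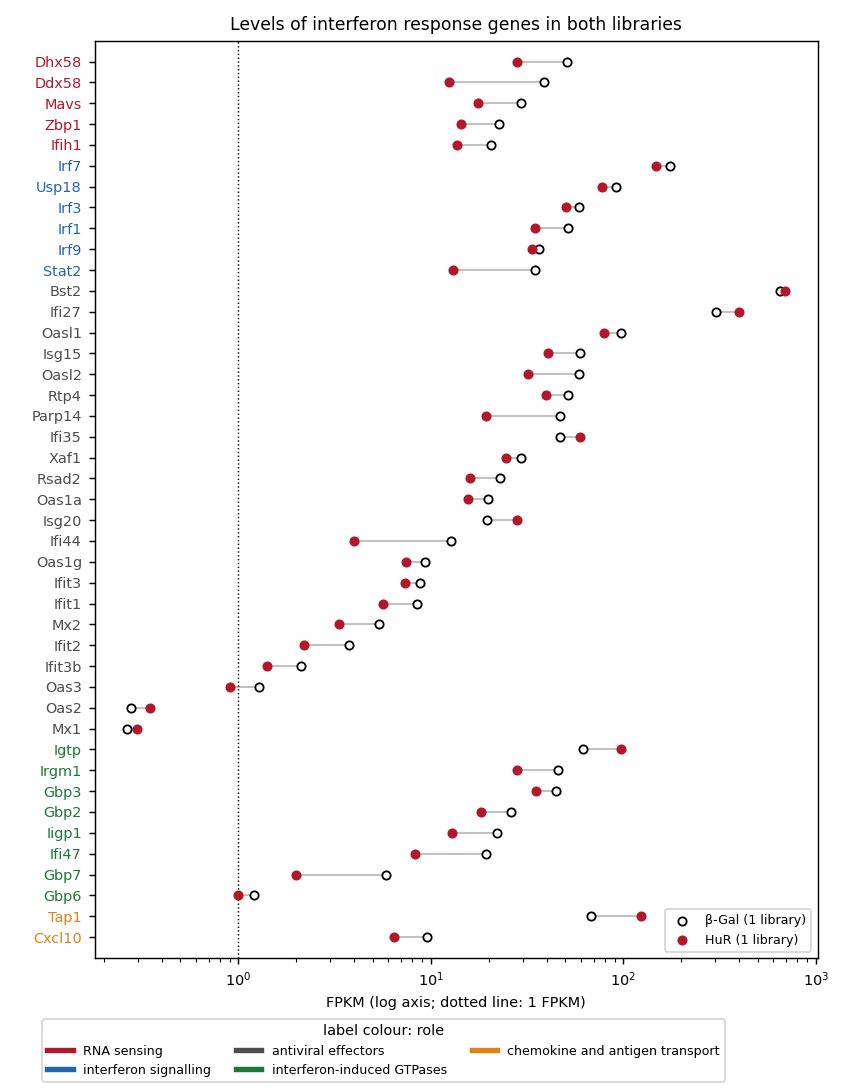
FPKM of all 43 members (log axis) in the β-Gal library (open circles) and the HuR library (filled circles), grouped by role. In the RNA sensing and signalling groups every filled circle lies left of its open circle, while Tap1, Igtp, Isg20, Ifi27, Ifi35 and Bst2 lie the other way, as do Mx1 and Oas2, which were below 1 FPKM and not compared.

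All 5 RNA sensing genes were lower in the HuR library, with Ddx58 farthest from its control value. Ddx58 encodes RIG-I, the helicase that recognises viral RNA ends, and is located on chromosome 4 (40203773 to 40239828, minus strand; coordinates of genes are those of GENCODE M21, GRCm38). Its level was 38.6 FPKM (1145 reads) with β-Gal and 12.4 FPKM (353 reads) with HuR, 3.12-fold lower (2.77 to 3.53). Ifih1, which encodes the long double-stranded RNA sensor MDA5, stood at 20.5 and 13.6 FPKM, 1.51-fold lower (1.37 to 1.66). Dhx58, which encodes LGP2, the regulator of both helicases, stood at 50.9 and 28.1 FPKM, 1.81-fold lower (1.62 to 2.03). Both other helicases thus differed less than Ddx58, and their intervals did not reach its interval.

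Mavs, the mitochondrial adaptor that both helicases activate, stood at 29.2 and 17.6 FPKM, 1.66-fold lower (1.52 to 1.82). Zbp1, a sensor of left-handed nucleic acid that can trigger necroptosis, stood at 22.6 and 14.3 FPKM, 1.58-fold lower (1.42 to 1.77). The median log2 fold change of the 5 genes was -0.70.

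Among signalling factors, Stat2 stood apart from the IRF factors. Stat2, the subunit of ISGF3 with a strong activation domain, lies on chromosome 10 at 128270559 to 128292849. Its level was 34.7 FPKM with β-Gal and 13.1 FPKM with HuR, 2.66-fold lower (2.37 to 2.98). Its partner Irf9, which gives ISGF3 its DNA specificity, stood at 36.3 and 33.5 FPKM, 1.08-fold lower (1.001 to 1.17). In the control library Stat2 and Irf9 transcripts were thus at nearly the same level per length, and in the HuR library Irf9 was the higher. Exons of Irf9 overlap those of Rnf31 on the same strand, which stood at 37.0 and 24.5 FPKM, so the level of Irf9 is uncertain.

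Irf7, the interferon-inducible factor that amplifies interferon alpha production, was the most abundant signalling member at 174 and 148 FPKM, 1.18-fold lower (1.12 to 1.23). Irf3, the constitutive factor that starts the response, stood at 59.1 and 50.2 FPKM, 1.18-fold lower (1.08 to 1.28). Irf1, an early factor of the interferon gamma response, stood at 51.7 and 34.9 FPKM, 1.48-fold lower (1.35 to 1.63). Usp18, the protease that removes ISG15 and dampens receptor signalling, stood at 91.5 and 77.4 FPKM, 1.18-fold lower (1.10 to 1.28). None of these reached 1.5-fold.

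The antiviral effectors went both ways, with 16 of 20 compared members lower, 4 higher and a median of -0.35. Ifi44, an interferon-induced protein linked to slower proliferation, was the lowest. It stood at 12.7 FPKM (460 reads) and 3.98 FPKM (139 reads), 3.19-fold lower (2.63 to 3.88), and lies on chromosome 3 at 151730922 to 151749960. Parp14, an ADP-ribosyltransferase that tunes interferon and interleukin-4 signalling, stood at 47.1 and 19.4 FPKM, 2.42-fold lower (2.28 to 2.58). These were the effectors past 2-fold.

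The Ifit genes encode proteins that bind viral RNA with foreign ends and lie together on chromosome 19 between 34550694 and 34650009. All 4 were lower by 1.20-fold to 1.70-fold and none exceeded 8.77 FPKM. With the trend in GC content and length removed, as described below, the median log2 fold change of the 4 was 0.04. Ifit1 stood at 8.49 and 5.62 FPKM (1.51-fold lower, 1.29 to 1.77), and Ifit2 at 3.74 and 2.20 FPKM (1.70-fold lower, 1.30 to 2.23). Ifit3 stood at 8.77 and 7.30 FPKM and Ifit3b at 2.12 and 1.41 FPKM. The coding sequences of Ifit3 and Ifit3b were 99.1% identical, so their separate values are uncertain.

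The Oas genes encode enzymes that make 2′-5′ oligoadenylate, the activator of RNase L, and the Oas-like genes encode relatives. Oasl1, which limits translation of Irf7 mRNA in mice, was the most abundant at 97.7 and 79.2 FPKM, 1.23-fold lower (1.16 to 1.32). Oasl2 differed most, at 58.8 and 31.8 FPKM, 1.85-fold lower (1.69 to 2.02). Oas1a stood at 19.9 and 15.6 FPKM and Oas1g at 9.30 and 7.45 FPKM, with coding sequences 96.7% identical and values that are therefore uncertain. Oas3 stood at 1.28 and 0.903 FPKM, from 59 and 40 reads, with an interval that included no difference.

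Mx1 and Oas2 stayed below 1 FPKM and were not compared. Mx1, whose encoded GTPase is inactive in C57BL/6 mice because of a deletion, stood at 0.265 FPKM (8 reads) and 0.299 FPKM (9 reads). Oas2 stood at 0.277 FPKM (14 reads) and 0.349 FPKM (17 reads). No difference was detectable for either at this depth. Mx2, a related GTPase gene that the annotation classes as a polymorphic pseudogene, stood at 5.35 and 3.33 FPKM, 1.61-fold lower (1.25 to 2.08).

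Isg15, the ubiquitin-like modifier, stood at 59.6 and 40.5 FPKM, 1.47-fold lower (1.32 to 1.64). Rsad2, which encodes viperin, an enzyme that makes a chain-terminating nucleotide, stood at 22.9 and 16.1 FPKM, 1.42-fold lower (1.30 to 1.56). Xaf1, a pro-apoptotic interferon target, stood at 29.4 and 24.6 FPKM, and Rtp4, a chaperone of some receptors, at 51.3 and 39.8 FPKM. Both were lower by less than 1.3-fold.

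Effectors with higher values in the HuR library numbered 4, and they included the most abundant members of all. Bst2, which encodes tetherin, the protein that holds budding virions at the cell surface, stood at 648 and 689 FPKM, 1.06-fold higher (1.03 to 1.10). Ifi27, a small protein of mitochondrial and nuclear membranes, stood at 303 and 397 FPKM, 1.31-fold higher (1.25 to 1.36). Ifi35, a leucine zipper protein, stood at 46.7 and 59.5 FPKM, 1.28-fold higher (1.17 to 1.39). Isg20, a 3′ to 5′ exonuclease, stood at 19.6 and 28.1 FPKM, 1.43-fold higher (1.24 to 1.66). All 4 stayed within 1.5-fold.

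**Figure D3:**
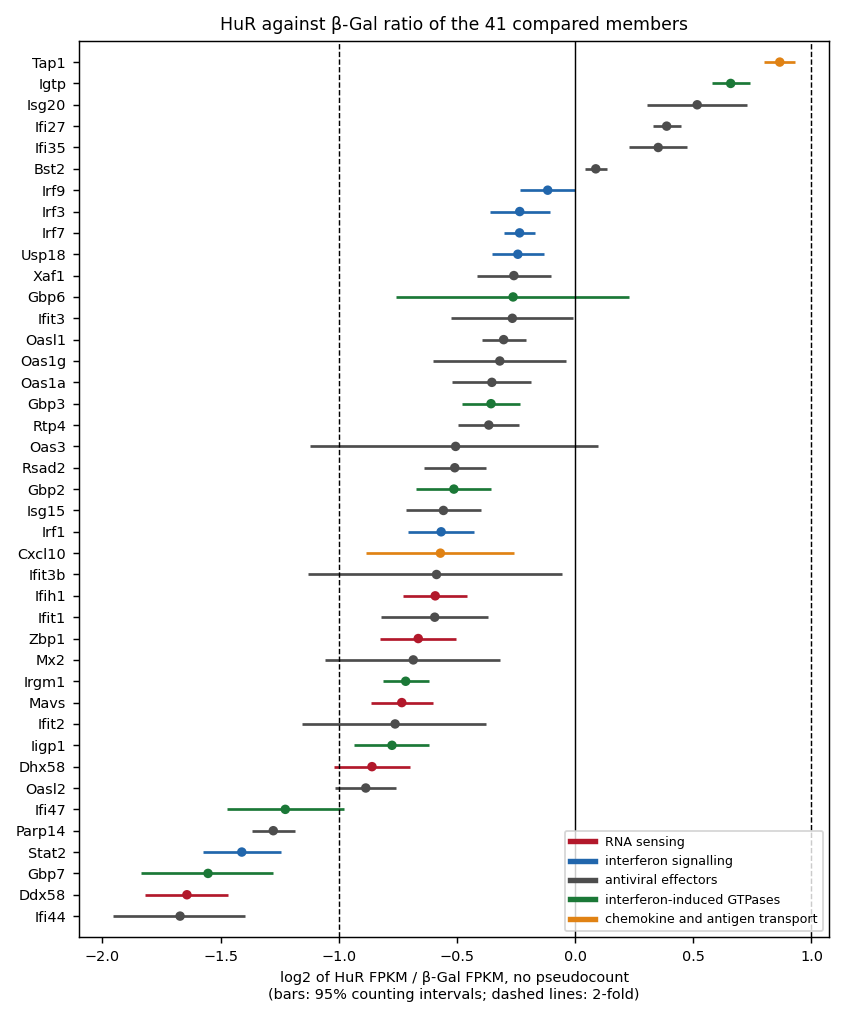
Log2 ratio of HuR to β-Gal FPKM without pseudocount for the 41 compared members, with 95% counting intervals as bars, coloured by role; dashed lines mark 2-fold. Ifi44 and Ddx58 lie lowest and Tap1 highest, and the intervals of Gbp6 and Oas3 include 0.

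The interferon-induced GTPases ranged from -1.19 to 0.65 on the log2 scale. Of 8 members, 7 were lower and 1 was higher. Gbp7, a guanylate-binding protein on chromosome 3 at 142530342 to 142550149, stood at 5.86 FPKM (436 reads) and 1.995 FPKM (143 reads), 2.94-fold lower (2.42 to 3.57). Its neighbours within the same cluster of 107.7 kb differed less. Gbp2 stood at 26.03 and 18.2 FPKM, 1.43-fold lower (1.28 to 1.59), and Gbp3 at 44.8 and 34.98 FPKM, 1.28-fold lower (1.18 to 1.39). Gbp6, on chromosome 5, stood at 1.201 and 1.001 FPKM with an interval that included no difference.

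The immunity-related GTPases, which coat or protect vacuoles that hold pathogens, differed in direction. Ifi47, also called IRG-47, stood at 19.3 and 8.25 FPKM, 2.34-fold lower (1.97 to 2.78). Irgm1, a regulator of the other GTPases and of autophagy, stood at 46.0 and 28.0 FPKM, 1.64-fold lower (1.54 to 1.76). Iigp1, an effector that is loaded onto the vacuole of Toxoplasma, stood at 21.99 and 12.8 FPKM, 1.71-fold lower (1.54 to 1.91).

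Igtp, which encodes the regulator Irgm3, went the other way at 61.8 and 97.5 FPKM, 1.58-fold higher (1.49 to 1.67). Its exons overlap those of Irgm2 on the same strand in the annotation, and Irgm2 stood at 23.4 and 9.37 FPKM, 2.5-fold lower (2.27 to 2.76). Sources used here do not say how reads of the shared part were assigned, so the opposite values of this pair are uncertain.

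Tap1 lay highest of all members. Tap1 encodes a subunit of the transporter that brings peptides to MHC class I and lies on chromosome 17 at 34187553 to 34197225. It stood at 68.1 FPKM (2954 reads) and 124 FPKM (5182 reads), 1.82-fold higher (1.74 to 1.91). Its exons overlap those of Psmb9, an immunoproteasome subunit gene on the opposite strand, which stood at 28.5 and 37.6 FPKM. Cxcl10, the chemokine that attracts T cells, stood at 9.51 and 6.40 FPKM, 1.48-fold lower (1.20 to 1.85).

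In the annotation, exons of 17 members overlap those of another gene, and for 7 members that gene was itself compared. Because no source used here gives the strand setting, it is not known whether reads of such pairs on opposite strands were kept apart. Among the members past 2-fold, Parp14 overlaps Gm49730 and Gbp7 overlaps Gm43802, whose levels were not analysed here. Ifi47 overlaps Olfr56 on the same strand and Gm12188 on the other, which stood at 0.166 and 1.05 FPKM in the β-Gal library, far below Ifi47.

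The other lists of the pathway (ligands, receptors, adaptors, regulators, other targets, antigen presentation and chemokines) held 117 compared genes. Of these, 14 were at least 2-fold lower (12.0%, against 8.31% of all compared genes) and 1 was higher (0.855%, against 5.35%). Values below 0 were seen for 59.8% of them, against 60.7% of all compared genes, and their median was -0.26. Their difference from the members was not tested. The same all-gene shares, 8.31% lower and 5.35% higher, are the reference for the count of each list below. Of 21 interferon genes, 1 was listed (Ifnz, from 2 reads with β-Gal and 0 with HuR), and the others were not analysed here. Receptors and JAK-STAT factors had 1 of 9 compared genes past 2-fold in the lower direction and 0 in the higher, and a median of -0.41. That gene was Ifnar1, a chain of the receptor for interferon alpha and beta, at 24.6 and 9.56 FPKM, 2.58-fold lower (2.26 to 2.96). The other chain, Ifnar2, stood at 26.1 and 29.1 FPKM, so the chains of this receptor differed in opposite directions. The chains of the interferon gamma receptor, Ifngr1 and Ifngr2, stood at 206 and 118 FPKM and at 22.5 and 28.7 FPKM.

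Sensing adaptors, kinases and other sensors had 2 of 16 compared genes lower and 1 higher, with a median of -0.19. Trim25, the ubiquitin ligase that activates RIG-I, stood at 53.3 and 20.2 FPKM, 2.64-fold lower (2.48 to 2.80). Tlr2, a receptor for bacterial lipopeptides, stood at 12.7 and 3.53 FPKM, and Tbkbp1, a binding protein of the kinase TBK1, at 4.41 and 13.6 FPKM. Tbk1 itself stood at 16.8 and 18.6 FPKM. Negative regulators had 1 of 15 lower, Rnf125, a ubiquitin ligase that marks RIG-I for degradation, at 12.3 and 3.95 FPKM, and 0 higher, with a median of -0.34.

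Other interferon-stimulated genes had 8 of 47 compared genes past 2-fold in the lower direction and 0 in the higher, and a median of -0.40. The lowest was Pnpt1, a mitochondrial RNA exonuclease, at 19.6 and 5.09 FPKM. Helz2, a helicase and nuclear receptor coactivator, stood at 29.0 and 9.75 FPKM, and Uba7, the activating enzyme for ISG15, at 18.8 and 7.34 FPKM. Parp12, Zc3hav1 (the antiviral zinc finger protein ZAP), Ddx60, Trim26 and Trim30a were the other 5. The abundant restriction factor Ifitm3 stood at 813 and 1209 FPKM and Ifitm2 at 246 and 332 FPKM. Of 7 other interferon-induced or related GTPases, 2 were lower, Irgm2 and the atlastin Atl2, at a median of -0.46.

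Antigen presentation genes did not share the lower values. Of 19 compared genes, 0 were past 2-fold either way with the pseudocount (log2 fold change -0.99 to 0.90). Their median was 0.19, and 14 were higher. Values below 0 were seen for 26.3% of them, against 60.7% of all compared genes. Without the pseudocount, the ratios of Erap1 and Cd74, given below, passed 2-fold in opposite directions. The class I heavy chains H2-K1 and H2-D1 stood at 3181 and 3773 FPKM and at 3010.4 and 3557 FPKM, and B2m at 1577 and 1825 FPKM. Erap1, a peptide-trimming enzyme, was the lowest at 25.3 and 12.2 FPKM. Macrophage markers, whose cells express class II genes such as Cd74 (3.62 and 7.65 FPKM), were higher too, as were most hepatocyte markers. Both are given below, and their part in the antigen presentation values was not tested.

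Of 4 other interferon-inducible chemokine genes compared, 0 were past 2-fold, with Ccl2, which attracts monocytes, at 242 and 165 FPKM and Cxcl9, which attracts T cells, at 62.8 and 68.7 FPKM.

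**Figure D4:**
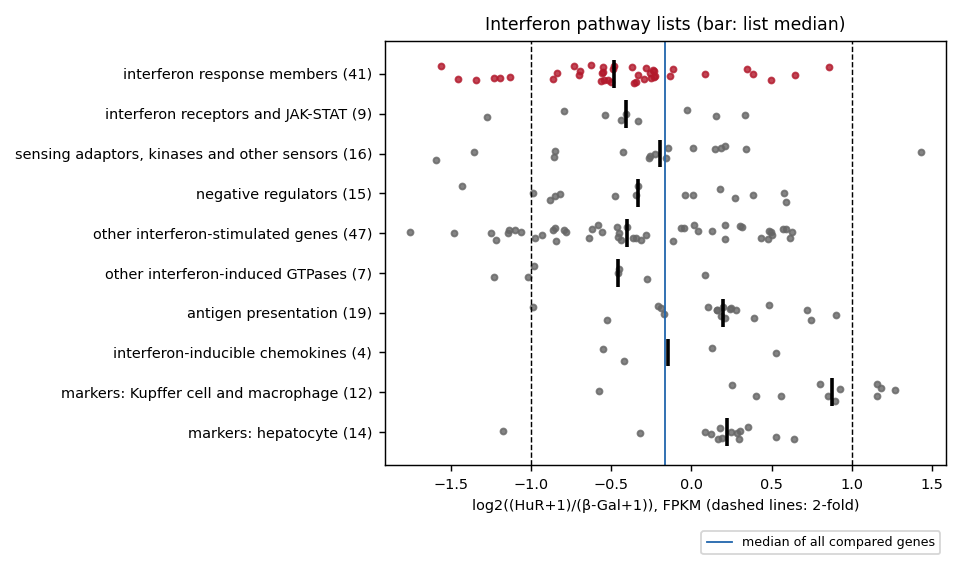
Log2((HuR+1)/(β-Gal+1)) of each compared gene in the interferon response members, the other pathway lists and 2 marker lists (number compared in parentheses), with list medians as black bars, the median of all compared genes (-0.17) as a blue line and 2-fold as dashed lines. The members' median (-0.48) lies left of the blue line, and those of antigen presentation (0.19) and macrophage markers (0.87) lie right of it.

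Hepatocyte markers were abundant in both libraries, with 13 of 14 within 2-fold and Cps1 as the exception at 8.41 and 3.17 FPKM. Their median log2 fold change was 0.22, and 12 of the 14 were higher in the HuR library, against 5074 of all 12905 compared genes. In bulk RNA, fewer cells of a type and less RNA per cell cannot be told apart. Of 20 Kupffer cell and macrophage markers, 12 were compared, of which C1qb, C1qc, Marco and Cd68 (4) exceeded 2-fold upward and 0 downward. The summed level of all 20 was 271 FPKM with β-Gal and 497 FPKM with HuR, with the largest part from Cd14, and 0 of them were at 0 in the HuR library. This is opposite to the direction of most interferon members and the same as that of Tap1, and its part in these values was not tested. Of 16 lymphocyte and natural killer cell markers, 10 were listed, 0 reached 1 FPKM and 5 were at 0 in the HuR library. Of compared stellate cell markers 5 of 5 were past 2-fold downward, all at under 4 FPKM, of endothelial markers 2 of 8 upward, and of cholangiocyte markers 2 of 6 downward and 1 upward. Of 7 listed dendritic cell markers, 4 were compared and 0 were past 2-fold. One of them is the member Bst2, which marks resting plasmacytoid dendritic cells in mice, and the other 3 stood at 5.50 and 3.33 FPKM (Tcf4), 1.83 and 2.59 FPKM (Irf8) and 1.36 and 1.99 FPKM (Zbtb46). Itgax, Ccr9 and Xcr1 stayed below 1 FPKM, and the part of such cells in the values of Bst2 was not tested.

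The differences of interferon response genes moved with the base composition of their transcripts, as they did across all genes. Over the 41 compared members, the log2 fold change had a Spearman correlation of 0.45 with GC content and -0.32 with mean transcript length, and over all compared genes these were 0.31 and -0.31. Genes are not independent replicates, and all points share the same pair of libraries. The 6 members past 2-fold had a median GC content of 45.9%, and the 6 with higher values one of 55.7%, while the median of all compared genes was 50.8%. With the trend in GC content and length removed and the median of all genes set to 0, the members' median was -0.20, and 2 of the 6 were still past 2-fold, Stat2 (-1.23) and Ddx58 (-1.22). The share of all genes past 2-fold on this scale was not computed, so the count of 2 has no such reference. On the same scale Ifi44 stood at -0.998, Ifi47 at -0.89, Parp14 at -0.73 and Gbp7 at -0.55. Tap1 (0.94) and Igtp (0.90) kept high values. Of the 41 members, 29 then lay below 0 and 12 above it. Among those above it were Ifit1 (0.05), Ifit3 (0.07), Ifit3b (0.03), Rsad2 (0.02) and Ifih1 (0.002). Ifit2 stood at -0.14 and Bst2 at -0.21. The other pathway genes together had a median of 0.03 on this scale. By list, it was -0.17 for receptors and JAK-STAT factors, 0.07 for sensing adaptors and 0.05 for negative regulators. For other interferon-stimulated genes it was -0.22, for other GTPases -0.21, for antigen presentation 0.19 and for chemokines 0.06.

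**Figure D5:**
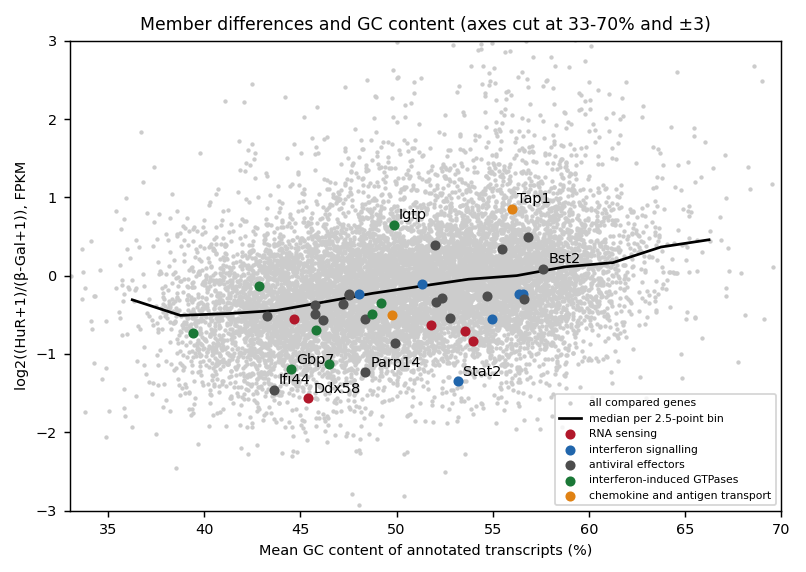
Log2((HuR+1)/(β-Gal+1)) against mean GC content of annotated transcripts for all compared genes (grey), their median in bins of 2.5 percentage points with at least 20 genes (line) and the members, coloured by role. The line rises with GC content, and Ddx58, Stat2, Ifi44 and Parp14 lie below it while Tap1 and Igtp lie above it.

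HuR is known to bind AU-rich and U-rich stretches of 3′ untranslated regions. The pentamer ATTTA, read on the transcript strand in the 3′ untranslated region of the longest annotated coding sequence, was present in 25 of the 41 compared members (61.0%) and in 63.4% of all compared genes with such a region. The 6 lower members had a median of 2.5 pentamers in a median of 1470 bases, and the 6 higher members a median of 0 in 278 bases. All compared genes with such a region had a median of 1 pentamer in a median of 887 bases. Across the 41 members, the log2 fold change had a Spearman correlation of -0.41 with the pentamer count, -0.52 with the length of the region and -0.25 with pentamers per kb. Over all genes the values were -0.26, -0.27 and -0.17. Gbp7 and Ifi44 held 7 pentamers each, whereas Stat2 held 0 in 1479 bases. Medians per kb were 2.02 in the lower members, 0 in the higher and 1.13 in all compared genes with such a region. At least 1 pentamer was present in 5 of the 6 lower members and 2 of the 6 higher. How far the pentamer count goes with the length and base composition of the region was not tested, and no binding was measured.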

How the data were processed

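The deposited tables, 1 for each library, hold the authors' FPKM of every listed gene. Per the submitters' processing notes, which state no role or order, TopHat2 and HTSeq 0.6.1 were used with GRCm38. Sources used here do not give the annotation release, FPKM calculation, library kit, strand setting or gene filters. Both tables listed the same 20505 genes. None was at 0 in the β-Gal table and 2233 were at 0 in the HuR table, so a gene with no β-Gal value is not analysed here. A gene at 0 with β-Gal and at least 1 FPKM with HuR would be called higher. Any such genes are missing from the all-gene shares and median used as references, and their number is not known.

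Identifiers were matched to GENCODE mouse M21 (20143 matched), which also gave coordinates, lengths, GC content and untranslated regions. FPKM steps matched whole reads over the mean transcript length, with implied totals of 18357017 (β-Gal) and 17671387 (HuR) reads. Values lay within 0.02 of a whole read in both libraries for 73.3% of genes with a length and for 32 of 43 members. The reads of the other 11 members (including Stat2, Ifi47, Irgm1 and Bst2) are estimates.

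Folds are ratios without pseudocount, and calls used a pseudocount of 1, at least 1 FPKM in a library and 2-fold. The GC and length trend was a least-squares cubic. The method was tested on data simulated with counting error alone and whole reads for every gene. That test does not cover the members whose reads are estimates, or error from culture, infection or library preparation. A gene of the receptor list is not reported here. Members and lists were chosen with earlier results of these data known. All compared members are named, by role. Of the other lists those past 2-fold were named first, then abundant ones, and further genes after their values had been seen. Calculations used Python 3.11.15, numpy 2.4.6, pandas 2.3.3 and scipy 1.17.1.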

Additional observations from a re-analysis of the deposited data

How the results depend on the processing

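With 1 library per group, counting error is the only error that the data give. The count of 6 members at least 2-fold lower became 3 at a pseudocount of 5 (Ddx58, Parp14 and Stat2), 2 with the GC and length trend removed and the median set to 0, and 12 at a threshold of 1.5-fold. It was 5 or 6 under the other 7 alternatives run, where 5 came from centring all genes on a median of 0, from keeping the median while removing the trend (4 of the original 6, plus Dhx58), and from requiring the counting interval to lie beyond 2-fold. The count of 0 higher became 1 (Tap1) with that centring and 2 (Igtp and Tap1) at 1.5-fold. Of all genes, 8.31% were lower in the main setting, 23.4% at 1.5-fold and 6.60% by the counting interval. The shares higher were 5.35% in the main setting and 12.0% at 1.5-fold. All-gene shares were not computed for the other alternatives, so the members' counts there have no such reference. The members' median of -0.48 stayed below 0 in each alternative, at -0.51 with a pseudocount of 0.1, -0.32 with 5, -0.37 without a filter, -0.49 at 5 FPKM, -0.32 after that centring, -0.20 and -0.37 with the trend removed (median set to 0 and kept), and -0.51 without Ifit3, Ifit3b, Oas1a, Oas1g and Gbp6. The median of all compared genes was itself -0.17 in the main setting, so a members' median below 0 does not alone set them apart. That all-gene median was 0 after the centring and was not computed for every other alternative. No paired analysis was possible because each group has 1 sample.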
